A study of Ovis aries with 2 samples.

Results

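CXCL1, CXCL12, CXCL14, CCL24 and CX3CL1 are chemokine genes, 5 of the 23141 genes listed for each of 2 single-cell RNA libraries of the sheep anterior pituitary. They were taken by their symbols in the gene list, and each matched 1 row: CXCL1 (gene identifier 443380), CXCL12 (101121145), CXCL14 (101105243), CCL24 (101117556) and CX3CL1 (101119927). One library came from Hu sheep aged 3 months and the other from Hu sheep aged 6 months, with no treatment or genetic change in the labels and no statement of how many animals, or of which sex, were pooled. The anterior lobe was cut away from the posterior lobe, digested with collagenase and freed of red blood cells, and single cells were captured in droplets.

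Each age was 1 library. Age and library therefore cannot be told apart, no test between ages was possible, and every interval given is a 95% interval for counting error only. After filtering, 15446 cells of the 3-month library and 12683 cells of the 6-month library remained, and 81 barcode sequences occurred in both libraries. Cells were grouped into 30 clusters without using any chemokine or chemokine receptor gene, and a cluster was given the name of a cell class with the ending "-like" when its fixed marker genes supported it. The hormone genes showed the labelled tissue: PRL made up 54.7% and 51.1% of the unique molecular identifiers (UMIs, each 1 captured RNA molecule) of lactotroph-like cells at 3 and 6 months, and GH made up 33.4% and 26.9% of those of somatotroph-like cells. Levels are given in CPM, the UMIs of the gene for every 1000000 UMIs of the class. A class is described only in a library where it had at least 20 cells.

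Chemokines are small secreted proteins that steer the movement of leukocytes and some tissue cells through receptors on the cell surface. CXCL1 draws neutrophils through CXCR2 and is induced by inflammatory signals. CCL24, also called eotaxin-2, draws eosinophils through CCR3 and is a product of macrophages, above all of those in a type 2 state. CXCL12 is made by stromal cells and holds and guides leukocytes and progenitor cells through CXCR4, while ACKR3 removes it from the surroundings. CXCL14 is made by many healthy tissues without inflammation, and its receptor is less settled. CX3CL1, or fractalkine, stands on the cell membrane on a mucin-like stalk, is released by the proteases ADAM10 and ADAM17, and binds CX3CR1 on monocytes, macrophages and some lymphocytes. In the anterior pituitary, hormone cells lie among folliculostellate and stem cells, which do not make the classical hormones, fenestrated capillaries and resident macrophages.

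The 5 genes had different main sources. Among the named classes, CXCL1 and CCL24 were highest in macrophage-like cells, CXCL12 in fibroblast-like cells and CXCL14 in somatotroph-like cells. CX3CL1 was highest in stem or folliculostellate-like cells. This held in both libraries, with intervals apart from the next class except for CXCL14 and CX3CL1 at 6 months. Clusters without a class name are left out of this order. In 1 of them, cluster 21, CXCL1 had 129 and 378 CPM at 3 and 6 months, against 93.5 and 128 CPM in macrophage-like cells. CCL24 had 198 and 34.4 CPM there, against 168 and 18.8 CPM. Over all kept cells, CXCL1 had 609 UMIs (4.80 CPM) at 3 months and 1970 UMIs (12.3 CPM) at 6 months. CXCL12 had 446 and 298 UMIs (3.52 and 1.87 CPM), and CXCL14 had 1255 and 116 UMIs (9.89 and 0.726 CPM). CCL24 had 995 and 171 UMIs (7.84 and 1.07 CPM), and CX3CL1 had 7987 and 6883 UMIs (63.0 and 43.1 CPM). These whole-library values also move with the makeup of the libraries, since stem or folliculostellate-like cells were 5680 of the 3-month cells and 2499 of the 6-month cells, and lactotroph-like cells were 2681 and 5735.

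**Figure D1:**
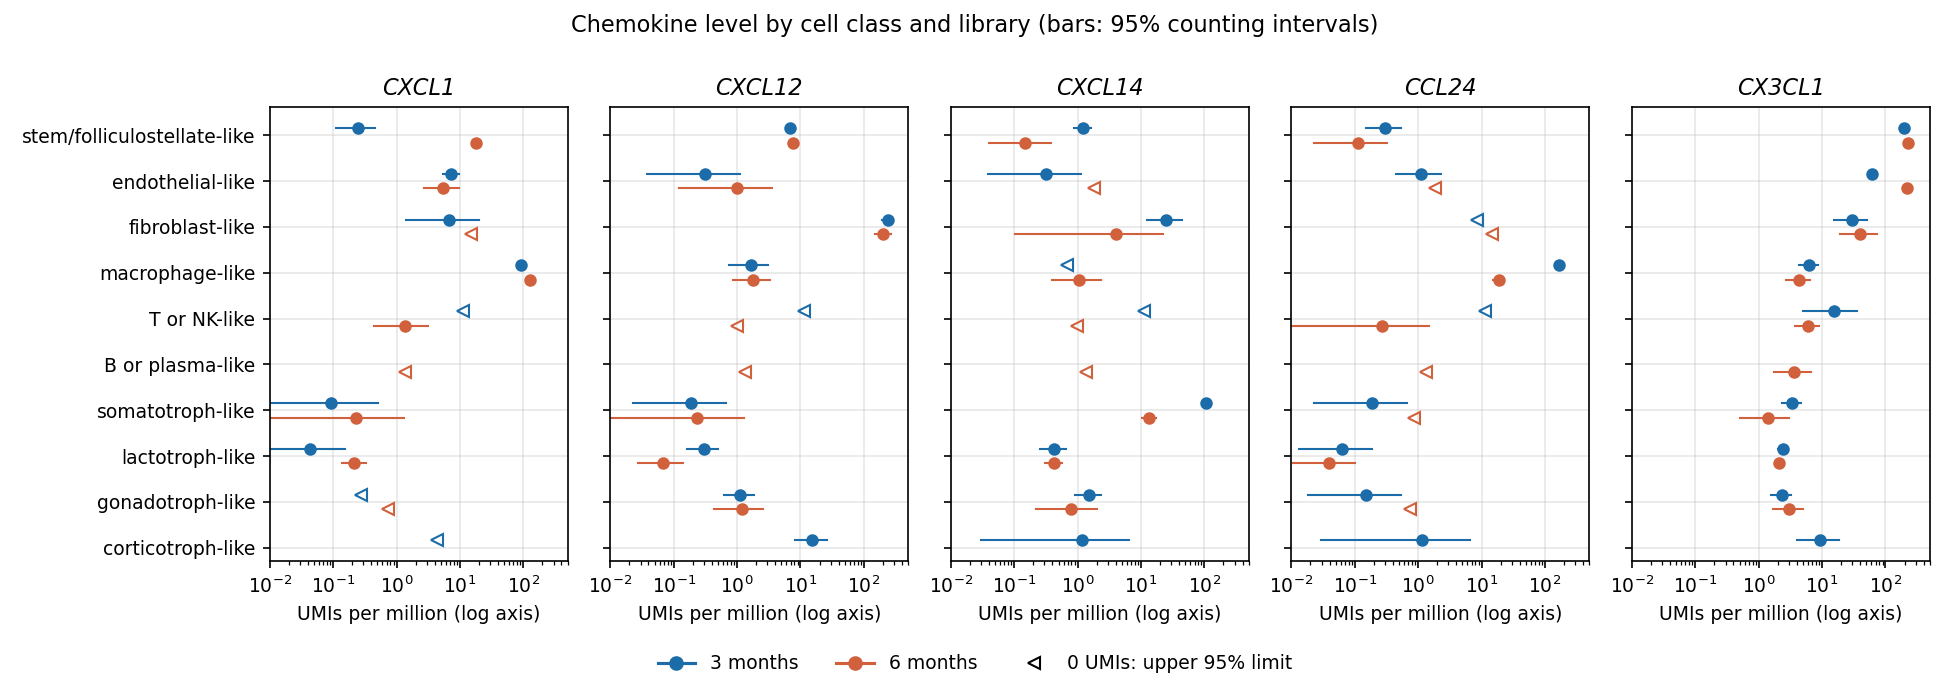
Level of each chemokine gene in each cell class, in CPM of the class on a log axis, with 1 point per library (blue 3 months, orange 6 months) and bars for the 95% counting interval; open triangles mark the upper end of the interval where no UMI was seen, and classes under 20 cells in a library are left out. Among the named classes shown, CXCL1 and CCL24 peak in macrophage-like cells, CXCL12 in fibroblast-like cells and CXCL14 in somatotroph-like cells. CX3CL1 peaks in stem or folliculostellate-like and endothelial-like cells.

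CXCL1 in macrophage-like cells stood at 93.5 CPM (512 UMIs in 1237 cells) at 3 months and 128 CPM (722 UMIs in 1074 cells) at 6 months. The log2 ratio of 6 over 3 months was 0.45 (0.29 to 0.62). At 3 months these cells held 84.1% of all CXCL1 UMIs, and at 6 months 36.6%. The rest at 6 months lay mainly in an unnamed cluster, number 21, with 31.8% of the UMIs, and in stem or folliculostellate-like cells with 24.4%. A UMI of CXCL1 was seen in 18.9% of the macrophage-like cells at 3 months and 28.7% at 6 months. With every cell thinned to 2000 UMIs, which leaves out 97 and 37 shallower cells, the shares were 12.5% (10.6% to 14.5%) and 17.7% (15.5% to 20.2%). Classes that should lack the gene gave shares near 0: after thinning, none of 1159 and none of 462 somatotroph-like cells and 0 of 82 and 1 of 844 T or NK-like cells held one, at unthinned median depths of 7157 and 6560 UMIs and of 2387 and 2736 UMIs.

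The macrophage-like class was made of different clusters in the 2 libraries, and the ratio differed between them. Cluster 6 held 93.6% of the 3-month cells of the class and cluster 11 held 97.5% of the 6-month cells. In cluster 6, led by DUSP2, CD83 and IL10, CXCL1 had 99.0 CPM at 3 months and 72.3 CPM (7 UMIs in 20 cells) at 6 months, a log2 ratio of −0.45 (−1.77 to 0.60). In cluster 11, led by the complement genes C1QA, C1QB and C1QC among others, it had 0 UMIs in 72 cells at 3 months and 129 CPM (707 UMIs in 1047 cells) at 6 months, at least 9.61-fold higher against a floor of 3 counts per library. Cluster 21 could not be named because markers of macrophages and of neutrophils both marked it. There CXCL1 had 129 CPM (30 UMIs in 38 cells) and 378 CPM (626 UMIs in 235 cells), with a log2 ratio of 1.55 (1.02 to 2.13). Its 5 neutrophil markers summed to 395 CPM at 3 months and 783 CPM at 6 months, against 38.4 and 48.6 CPM in the macrophage-like class, and their part in the CXCL1 level was not tested. With a finer clustering (Leiden resolution 2.0), the ratio in macrophage-like cells was −0.00017, with 86.9 CPM in each library. Macrophage-like cells with at least 5 CXCL1 UMIs numbered 25 at 3 months and 35 at 6 months. Their macrophage markers summed to 12099 and 20610 CPM, below the 21147 and 26049 CPM of the other cells. Neutrophil markers stood at 166 and 131 CPM in them, against 35.2 and 45.1 CPM. GH was 693 and 8856 CPM in them, against 2613 and 710 CPM. The part of these in the CXCL1 level was not tested.

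CXCL1 in stem or folliculostellate-like cells showed the widest gap of any of these genes between the libraries. It had 9 UMIs in 5680 cells (0.245 CPM) at 3 months and 480 UMIs in 2499 cells (17.7 CPM) at 6 months. The log2 ratio was 6.18 (5.24 to 7.31), 72.3-fold. With the free RNA estimate subtracted, the levels were 0.0520 and 17.04 CPM and the ratio 8.36. The 3-month level was what remained of 0.245 CPM after 0.193 CPM was taken off. The ratio of 8.36 thus depends on the estimate and has no interval. Cells with a CXCL1 UMI were 292 at 6 months (11.7%) and 8 at 3 months. After thinning they were 66 of 2401 (2.75%) and 4 of 5119. Their UMIs were spread, with 11.3% of them in the 10 highest cells at 6 months. The largest cluster of the class differed, cluster 2 with 43.8% of its cells at 3 months and cluster 7 with 68.7% at 6 months. Within cluster 7 alone the values were 0.600 CPM (4 UMIs in 585 cells) and 20.3 CPM (459 UMIs in 1717 cells), a log2 ratio of 5.08 (3.72 to 6.96). In the class, 3 of the 5 genes had at least 100 UMIs over both libraries, and 1 of the 3 was at least 2-fold higher at 6 months. Of all 12741 genes measured there, 3.71% were higher and 2.03% lower.

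Macrophage marker RNA was low in these cells. All 7 macrophage markers had a UMI there, and they summed to 59.6 CPM at 3 months and 94.6 CPM at 6 months, against 20928 and 25827 CPM in macrophage-like cells. At 6 months there were 187 CXCL1 UMIs for every 1000 macrophage marker UMIs in stem or folliculostellate-like cells, and 4.96 in macrophage-like cells. At 3 months the numbers were 4.11 and 4.47. Endothelial-like cells had 62.7 at 3 months and 42.0 at 6 months, from 47 and 11 CXCL1 UMIs. Fibroblast-like cells had 71.4, from 3 CXCL1 UMIs, and 0. Cluster 21 at 6 months had more CXCL1 beside its macrophage markers than the macrophage-like class, with 378 CPM beside 5758 CPM. The part of macrophage RNA, or of RNA of cluster 21, in the stem or folliculostellate-like level was not tested. The 6-month stem or folliculostellate-like cells with a CXCL1 UMI had a median depth of 16328 UMIs, against 5980 UMIs for those without one. Their stem or folliculostellate marker levels were 2347 and 2417 CPM. The summed level of 16 NF-kappaB and acute inflammation genes was 2218 CPM in those with a CXCL1 UMI and 1058 CPM in those without. In the same class at 6 months, cells with at least 5 CX3CL1 UMIs had 1601 CPM of this list, against 1138 CPM in the others. Macrophage-like cells with at least 5 CXCL1 UMIs had 14148 and 6902 CPM at 3 and 6 months. The other macrophage-like cells had 11589 and 6656 CPM.

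Elsewhere CXCL1 was sparse. Endothelial-like cells had 7.36 CPM (47 UMIs) at 3 months and 5.46 CPM (11 UMIs) at 6 months, a log2 ratio of −0.43 (−1.53 to 0.54). Lactotroph-like cells had 2 and 22 UMIs (0.0424 and 0.217 CPM), and 16 of the 22 came from cluster 9. Fibroblast-like cells had 3 UMIs at 3 months and 0 at 6 months, among only 31 cells. No UMI was found in gonadotroph-like cells of either library, in corticotroph-like cells at 3 months or in B or plasma-like cells at 6 months.

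CCL24 was a gene of macrophage-like cells and was lower at 6 months. Its level there was 168 CPM (920 UMIs) at 3 months and 18.8 CPM (106 UMIs) at 6 months. The log2 ratio was −3.16 (−3.46 to −2.87), 8.94-fold lower. These cells held 92.5% of all CCL24 UMIs at 3 months and 62.0% at 6 months, and cluster 21 held another 4.62% and 33.3%. No other named class exceeded 1.17 CPM in either library. Of the 5 genes, 2 were measured in macrophage-like cells, and CCL24 was the 1 at least 2-fold lower at 6 months. There 3.34% of 7885 genes were lower and 6.46% higher by that much.

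Few macrophage-like cells made up this signal. Of the 1237 cells at 3 months, 140 (11.3%) had a CCL24 UMI, and the highest held 101. At 6 months 27 of 1074 (2.51%) had one, and the highest held 24. After thinning the shares were 9.21% (7.59% to 11.04%) and 2.03% (1.26% to 3.08%), against 1 of 1159 and 0 of 462 somatotroph-like cells and none of the 82 and 844 T or NK-like cells. The 10 highest cells held 40.4% of the UMIs at 3 months and 74.5% at 6 months. Macrophage-like cells with at least 5 CCL24 UMIs numbered 52 and 6. In them the 7 macrophage markers summed to 26554 and 32639 CPM, above the 20607 and 25788 CPM of the other cells of the class.

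The direction for CCL24 was not the same in each cluster. Within cluster 6 it was 176 CPM (911 UMIs in 1158 cells) at 3 months and 331 CPM (32 UMIs) in the 20 cells at 6 months, of which 4 held all the UMIs, a log2 ratio of 0.91 (0.35 to 1.42). Within cluster 11 it was 31.4 CPM (7 UMIs in 72 cells) and 13.5 CPM (74 UMIs in 1047 cells), a ratio of −1.21 (−2.33 to 0.15). In cluster 21 it was 198 CPM (46 UMIs, 44 of them in 1 cell) and 34.4 CPM (57 UMIs), a ratio of −2.52 (−3.11 to −1.93). The class as a whole thus set mainly cluster 6 at 3 months beside cluster 11 at 6 months. CCL24 was seen in close shares of the macrophage-like cells with and without CXCL1: at 2000 UMIs, 9.86% of the 142 cells with CXCL1 at 3 months also had CCL24, against 9.12% of the others, and at 6 months 2.72% of 184 against 1.88%.

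**Figure D2:**
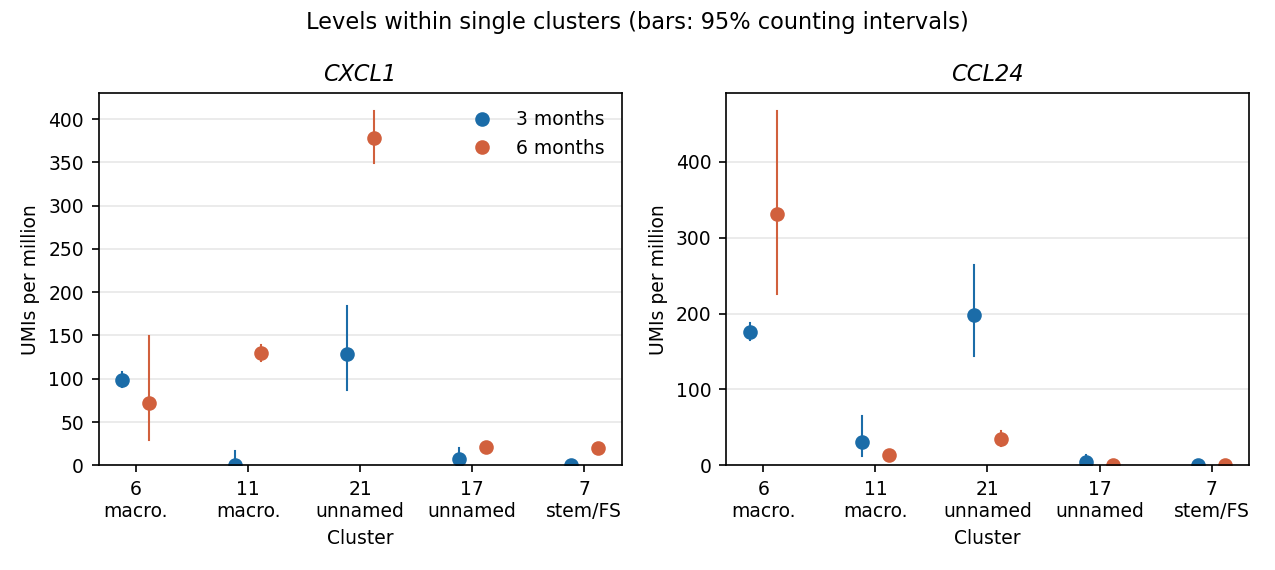
Levels of CXCL1 and CCL24 in CPM within single clusters, 1 point per library with bars for the 95% counting interval (macro.: macrophage-like; stem/FS: stem or folliculostellate-like). CXCL1 at 6 months is 129 CPM in cluster 11 and 378 CPM in cluster 21, while CCL24 is highest in cluster 6 in both libraries apart from cluster 21 at 3 months.

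CXCL12 was most concentrated in fibroblast-like cells, while most of its molecules lay in the far more numerous stem or folliculostellate-like cells. In fibroblast-like cells it had 239.8 CPM (106 UMIs in 145 cells) at 3 months and 201 CPM (50 UMIs in 31 cells) at 6 months. The log2 ratio of −0.26 (−0.77 to 0.24) had an interval that included 0. In stem or folliculostellate-like cells the level was 6.86 CPM (252 UMIs) and 7.71 CPM (209 UMIs), with a ratio of 0.17 (−0.10 to 0.44). Those cells held 56.5% of all CXCL12 UMIs at 3 months and 70.1% at 6 months, and fibroblast-like cells held 23.8% and 16.8%. CXCL12, the only 1 of the 5 genes measured in fibroblast-like cells, was thus within 2-fold. Only 905 genes were measured there, and 24.0% of them (217) stood lower and 2.87% (26) higher by 2-fold or more. With UMI totals taken without hormone genes, 125 were lower and 48 higher.

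The fibroblast-like cluster also carried mural markers, genes of pericytes and vascular smooth muscle. All 8 mural markers had a UMI at 3 months and 7 at 6 months, with summed levels of 4128 and 967 CPM beside 10605 and 5021 CPM for the fibroblast markers. Cells with a UMI of the matrix genes DCN or LUM and none of the pericyte gene RGS5, a split chosen after the values were seen, had 549 CPM of CXCL12 (69 UMIs in 38 cells) at 3 months. Cells with both had 118 CPM (36 UMIs in 103 cells). At 6 months the 2 kinds had 239 CPM (48 UMIs in 18 cells) and 41.5 CPM (2 UMIs in 13 cells), and 24 of the 48 UMIs came from 1 cell. PRL, a lactotroph product, was 1.22% of the UMIs of fibroblast-like cells at 3 months and 28.2% at 6 months, and its part in the 6-month level was not tested.

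A CXCL12 UMI was found in 35.2% of fibroblast-like cells at 3 months and 38.7% at 6 months, or 32.9% and 36.8% after thinning, with only 19 cells deep enough at 6 months. In stem or folliculostellate-like cells the shares were 3.94% and 7.60%, and after thinning 1.52% (1.21% to 1.90%) and 1.71% (1.23% to 2.31%). Somatotroph-like cells, which served as background, had 0 of 1159 and 1 of 462, and T or NK-like cells none. Corticotroph-like cells at 3 months came second with 15.2 CPM (13 UMIs in 218 cells; 8.08 to 25.9), above the stem or folliculostellate-like interval of 6.04 to 7.76. Macrophage-like (1.64 and 1.77 CPM) and gonadotroph-like cells (1.12 and 1.20 CPM) followed and overlapped each other in both libraries. Lactotroph-like cells had 0.297 CPM (14 UMIs) and 0.0690 CPM (7 UMIs), and endothelial-like cells had 2 UMIs in each library. In cluster 21, CXCL12 had 22 UMIs in 38 cells at 3 months and 1 UMI in 235 cells at 6 months.

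CXCL14 was highest in somatotroph-like cells, the growth hormone cells, and was lower there at 6 months. It had 105 CPM (1135 UMIs in 1298 cells) at 3 months and 13.5 CPM (58 UMIs in 506 cells) at 6 months. The log2 ratio was −2.96 (−3.37 to −2.58), 7.78-fold lower. Somatotroph-like cells held 90.4% of all CXCL14 UMIs at 3 months and 50% at 6 months. Lactotroph-like cells held 1.59% and 37.1%. The somatotroph-like class was comparable by cluster, since cluster 8 held 93.9% and 99.4% of its cells. Within cluster 8 the levels were 106 and 13.6 CPM. CXCL14, the only 1 of the 5 genes measured in this class, was at least 2-fold lower. There 1.18% of 8755 genes were lower (103) and 1.38% higher (121) by that much. With the totals rescaled by edgeR's TMM the split was 159 lower and 53 higher.

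Only a minority of somatotroph-like cells carried CXCL14, and some carried much. At 3 months 120 cells (9.24%) had a UMI, 35 had at least 10, and the highest had 86. At 6 months 10 cells (1.98%) had a UMI and a single cell held 41 of the 58. Thinned to 2000 UMIs, the shares were 7.16% (5.74% to 8.80%) and 0.216% (1 of 462), and T or NK-like cells gave 0 of 82 and 0 of 844, which allows shares up to 3.66% and 0.355%. The 10 highest cells held 43.6% of the UMIs at 3 months and all of them at 6 months. The 55 cells with at least 5 UMIs at 3 months carried the hormone of their class: GH was 378738 CPM in them and 331719 CPM in the others, and their median depth was 9792 UMIs against 7093 UMIs. Beside this, PRL in somatotroph-like cells was 16966 CPM at 3 months and 68791 CPM at 6 months, and its part in the CXCL14 difference was not tested.

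Lower levels of CXCL14 appeared in other classes. Fibroblast-like cells had 24.9 CPM at 3 months, from 11 UMIs in 2 cells, and 1 UMI at 6 months. Stem or folliculostellate-like cells had 1.20 CPM (44 UMIs) and 0.147 CPM (4 UMIs), a log2 ratio of −3.02 (−4.96 to −1.56). Gonadotroph-like cells had 1.49 and 0.799 CPM, with 20 and 4 UMIs. Lactotroph-like cells had 20 UMIs and 43 UMIs, which is 0.424 CPM in both libraries, but 33 of the 43 came from 1 cell in cluster 1. The 6-month value rests on which cells are counted as lactotroph-like: it was 0.0102 CPM under the looser filter, where the log2 ratio was −6.47, and 10.4 CPM (4.12) without clusters of which 90% came from 1 library. Macrophage-like cells had 0 and 6 UMIs, and endothelial-like cells 2 and 0. At 6 months the somatotroph-like interval (10.3 to 17.5 CPM) overlapped that of the 31 fibroblast-like cells (0.102 to 22.4 CPM), so the order of the top pair is not resolved there. Under the stricter filter a thyrotroph-like class of 60 cells came first at 6 months, with 130 against 14.0 CPM in somatotroph-like cells. The lactotroph-like level at 6 months was 0.0702 CPM under that filter. Whether the cell with 33 UMIs lay in the thyrotroph-like class there was not tested.

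**Figure D3:**
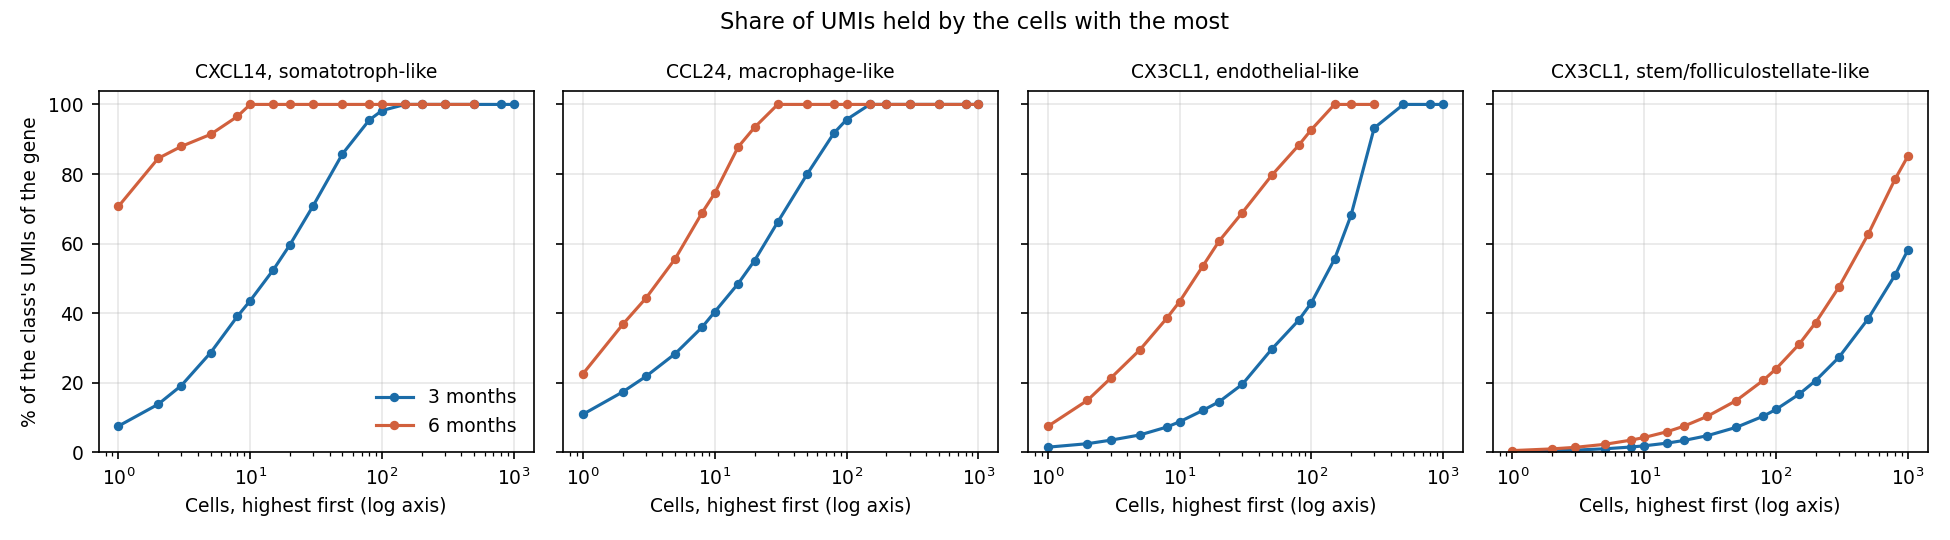
Share of a class's UMIs of CXCL14, CCL24 or CX3CL1 (y, %) held by the given number of its cells, taken from the highest down (x, log axis), with 1 line per library. At 6 months the 10 highest cells hold all CXCL14 UMIs of somatotroph-like cells, 74.5% of the CCL24 UMIs of macrophage-like cells and 43.3% of the CX3CL1 UMIs of endothelial-like cells, against 4.29% of those of stem or folliculostellate-like cells.

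CX3CL1 was broadly present in stem or folliculostellate-like cells at both ages. Its level there was 196 CPM (7220 UMIs) at 3 months and 224 CPM (6077 UMIs) at 6 months, with a log2 ratio of 0.19 (0.14 to 0.24). These cells held 90.4% and 88.3% of all CX3CL1 UMIs. The signal was spread over many cells: 3301 of 5680 cells (58.1%) and 1750 of 2499 cells (70.0%) had a UMI, and the 10 highest cells held 1.90% and 4.29% of the UMIs. After thinning the shares were 30.7% (29.4% to 32.0%) and 34.0% (32.1% to 36.0%), against 0.690% and 0.433% in somatotroph-like and 3.66% and 1.18% in T or NK-like cells.

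Within the class, CX3CL1 also differed between clusters. Clusters 2, 3 and 7 had 213, 220.1 and 191 CPM at 3 months and 195, 241 and 234 CPM at 6 months. Cluster 18, led by cell-cycle genes such as TOP2A and UBE2C, had 51.9 CPM (67 UMIs) and 116 CPM (106 UMIs). Log2 ratios were −0.12 (−0.27 to 0.02) in cluster 2, 0.13 (−0.09 to 0.34) in cluster 3 and 0.30 (0.21 to 0.39) in cluster 7.

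Endothelial-like cells were the second source of CX3CL1, and here the libraries differed. The level was 62.4 CPM (398 UMIs in 1876 cells) at 3 months and 219 CPM (441 UMIs in 436 cells) at 6 months. The log2 ratio was 1.81 (1.61 to 2.01), 3.51-fold. At 6 months the interval (199 to 240.3 CPM) overlapped that of stem or folliculostellate-like cells (218 to 230 CPM), whereas at 3 months the latter was 3.15-fold higher. The order at 6 months turned with the cell filter: endothelial-like cells came first under the looser (226.6 against 224 CPM) and the stricter one (225 against 221.0 CPM). Cluster 0 held 99.9% of the endothelial-like cells at 3 months and 59.9% at 6 months, and within it the levels were 62.4 and 287 CPM, a ratio of 2.20 (2.00 to 2.40). Cluster 29, with 175 of its 176 cells from 6 months, had 67.5 CPM (42 UMIs). CX3CL1, the only 1 of the 5 genes measured in endothelial-like cells, was at least 2-fold higher, where 2.81% of 7843 genes were and 3.63% were lower.

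In endothelial-like cells the UMIs also lay differently among cells. A CX3CL1 UMI was found in 17.4% of cells at 3 months and 30.3% at 6 months, or in 11.8% (10.2% to 13.7%) and 20.4% (16.4% to 25.0%) after thinning. The highest cell had 6 UMIs at 3 months and 33 at 6 months. At least 5 UMIs were found in 1 cell at 3 months and in 21 cells at 6 months, which held 273 of the 441 UMIs. The other 415 cells held 168 UMIs, 94.3 CPM, against 61.4 CPM in the 1875 cells under 5 UMIs at 3 months, a split chosen after the values were seen. The 21 cells had a median depth of 7804 UMIs against 3227 UMIs in the others, endothelial markers at 5537 CPM against 11665 CPM, and stem or folliculostellate markers at 228 CPM against 657 CPM. Hormone RNA was higher in them, with GH at 11259 CPM against 1708 CPM and PRL at 80788 CPM against 52998 CPM, and neutrophil markers stood at 142 CPM against 44.3 CPM. The part of these in the CX3CL1 level was not tested. Their summed NF-kappaB and acute inflammation genes stood at 4090 CPM against 1372 CPM.

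CX3CL1 in the remaining classes was low. Fibroblast-like cells had 29.4 and 40.1 CPM, from 13 and 10 UMIs. T or NK-like cells had 15.2 CPM (5 UMIs) and 5.91 CPM (22 UMIs), and macrophage-like cells 6.21 and 4.26 CPM. Corticotroph-like cells at 3 months had 9.33 CPM (8 UMIs) and B or plasma-like cells at 6 months 3.66 CPM (10 UMIs). Somatotroph-like (3.34 and 1.40 CPM), gonadotroph-like (2.31 and 3.00 CPM) and lactotroph-like cells (2.46 and 2.06 CPM) had neighbouring levels whose intervals overlapped. Free RNA in the droplets, estimated from hormone genes, would give 2.01 and 1.70 CPM of CX3CL1 in somatotroph-like, 2.23 and 1.28 CPM in gonadotroph-like and 0.711 and 0.656 CPM in lactotroph-like cells. The lactotroph-like levels were above their estimate in both libraries, and 1.75 and 1.41 CPM were left there after its subtraction. Across the alternatives the 6-month level ranged from 0.839 CPM under the looser filter to 5.05 CPM with doublets kept. Many of the 6-month UMIs lay in cluster 9, where stem or folliculostellate markers summed to 699 CPM. The part of that cluster in the lactotroph-like level was not tested.

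**Figure D4:**
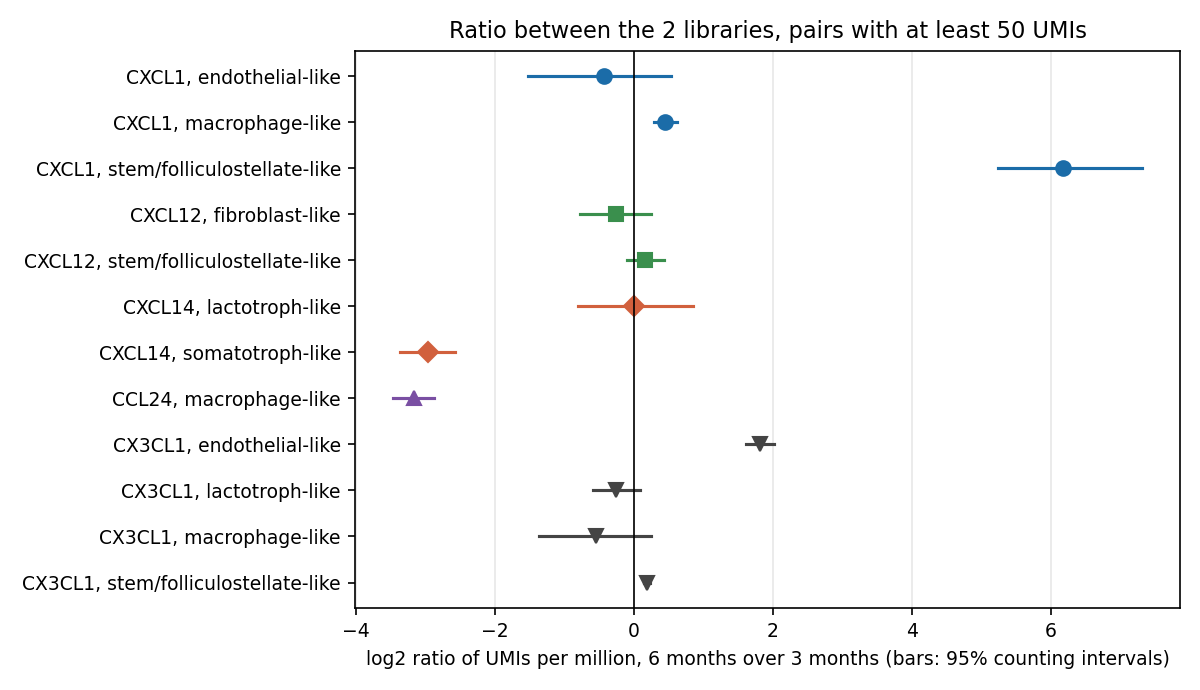
Log2 ratio of CPM at 6 months over 3 months for each gene and class with at least 50 UMIs over both libraries, with bars for the 95% counting interval. CXCL1 in stem or folliculostellate-like cells (6.18) and CX3CL1 in endothelial-like cells (1.81) lie right of 0, and CXCL14 in somatotroph-like cells (−2.96) and CCL24 in macrophage-like cells (−3.16) lie left of it.

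Of the 6 receptors listed for these ligands, 5 were in the gene list. CXCR4, the receptor of CXCL12, had 908 and 662 CPM in T or NK-like cells, 785 and 495 CPM in macrophage-like cells and 148 and 88.5 CPM in stem or folliculostellate-like cells at 3 and 6 months. B or plasma-like cells had 219.6 CPM at 6 months, and the endocrine classes with 20 cells in both libraries lay between 2.37 and 8.87 CPM. That range leaves out corticotroph-like cells, where 11 of 145 (7.59%, 3.85% to 13.2%) held a CXCR4 UMI after thinning at 3 months. ACKR3, which takes up CXCL12, had 97.5 and 103 CPM in T or NK-like cells and 54.5 and 49.5 CPM in stem or folliculostellate-like cells. A CXCR4 UMI was found in 47.3% of stem or folliculostellate-like cells in each library, and after thinning in 24.8% and 17.1%, against 1.81% and 1.30% of somatotroph-like cells. For ACKR3 the shares were 19.7% and 29.6%, or 8.38% and 8.62% after thinning, against 0.431% and 0 of 462 somatotroph-like cells.

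CX3CR1 was highest in macrophage-like cells, with 76.0 CPM (416 UMIs) at 3 months and 49.3 CPM (278 UMIs) at 6 months. T or NK-like cells had 4.84 CPM (18 UMIs) at 6 months, and no other named class with at least 5 UMIs exceeded 0.299 CPM. CXCR2, the receptor of CXCL1, had 8.04 CPM (44 UMIs) and 2.84 CPM (16 UMIs) in macrophage-like cells and at most 3.05 CPM elsewhere among the named classes. CCR3, the receptor of CCL24, had no UMI in any described class of either library. None of the receptors measured in macrophage-like cells was 2-fold apart between libraries (3 measured, median log2 ratio −0.66, where the median of all genes was 0.09), and the same held in stem or folliculostellate-like cells (2 measured, median −0.44, all genes −0.0014). In endothelial-like cells 1 of 2 was higher, CXCR4 at 8.77 and 23.3 CPM (median 0.93, all genes −0.11).

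**Figure D5:**
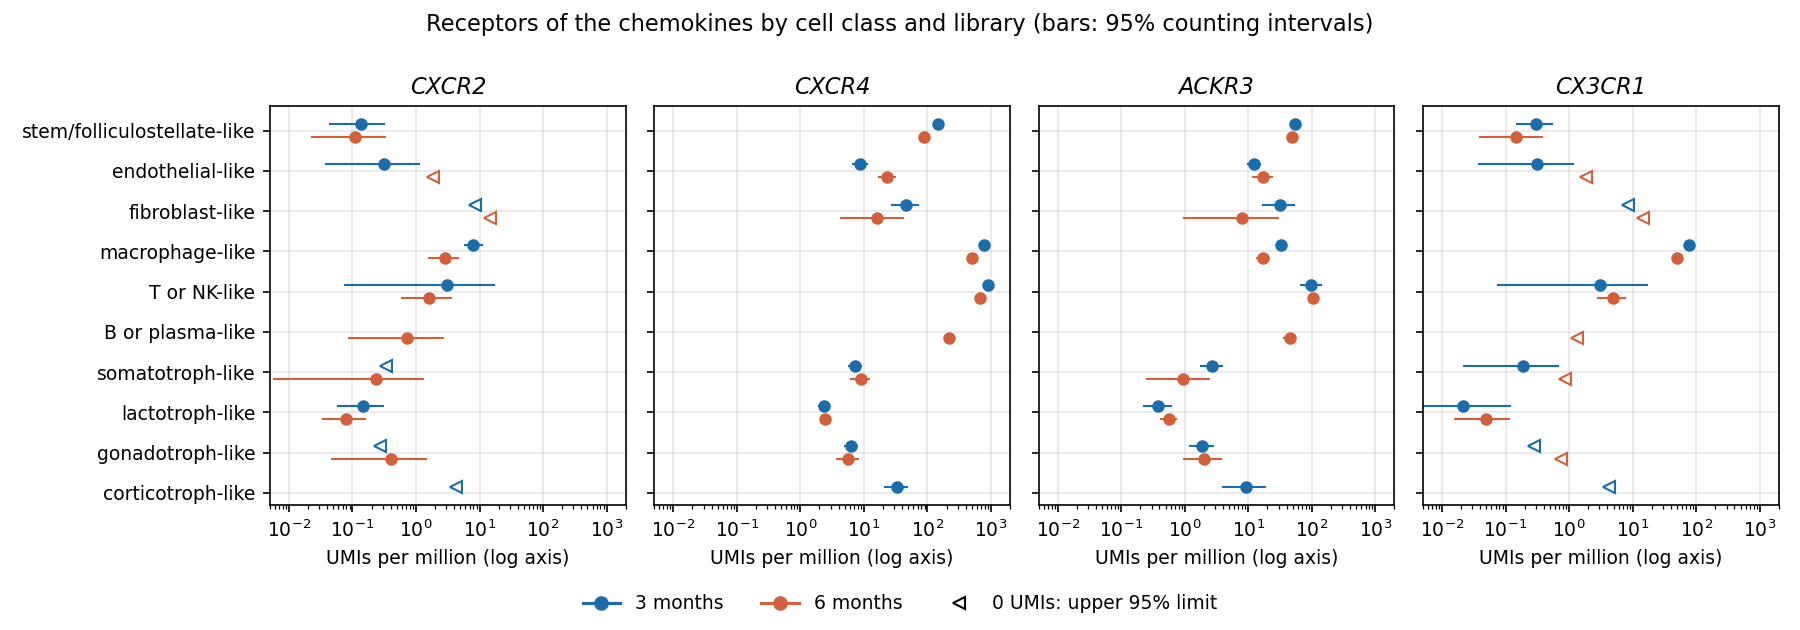
Levels of the receptors CXCR2, CXCR4, ACKR3 and CX3CR1 by cell class, in CPM on a log axis, with 1 point per library, bars for the 95% counting interval and open triangles for the upper end of the interval where no UMI was seen. CXCR4 is highest in T or NK-like and macrophage-like cells, and CX3CR1 stands at 76.0 and 49.3 CPM in macrophage-like cells.

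Other chemokine genes gave context for these values. In macrophage-like cells, 8 of the 20 other chemokines in the gene list had at least 100 UMIs, and 3 were at least 2-fold higher and 1 lower (median log2 ratio 0.17), where 6.46% of all genes were higher and 3.34% lower. The interferon-induced ligands of CXCR3 were the higher ones: CXCL9 was at 44.4 and 1682 CPM, CXCL10 at 374 and 2986 CPM and CXCL11 at 17.5 and 359 CPM. The lower one was CXCL8, a neutrophil attractant that shares CXCR2 with CXCL1, at 12473 and 3233 CPM (−1.95, −1.97 to −1.92). Among 4 other chemokine receptors measured there, CCR7 (8.95 and 85.9 CPM) and CCRL2 (33.2 and 87.3 CPM) were 2-fold higher.

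In stem or folliculostellate-like cells, 6 of 10 other chemokines were at least 2-fold higher and 1 lower, with a median of 1.17, where 3.71% of all genes were higher and 2.03% lower. CXCL10 stood at 2.80 and 157 CPM, CXCL11 at 0.463 and 23.7 CPM, CXCL9 at 14.4 and 111 CPM, CXCL16 at 10.6 and 26.7 CPM, CCL5 at 0.925 and 2.88 CPM and CCL19 at 4.95 and 9.92 CPM. The lower one was CCL21 (2.83 and 1.29 CPM), named after its values were seen. CXCL8 was at 20.8 and 24.8 CPM in these cells, a log2 ratio of 0.25 (0.10 to 0.40), beside 6.18 for CXCL1. In fibroblast-like cells both other chemokines measured, CXCL9 (15.8 and 385 CPM) and CXCL10 (109 and 1240.3 CPM), were higher. In somatotroph-like cells 3 were measured, and CXCL8 (20.1 and 8.64 CPM) was lower beside CXCL14. In endothelial-like cells, where CX3CL1 was higher, 4 of 5 were higher and 1 lower, with a median of 2.57.

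The 16 NF-kappaB and acute inflammation genes differed between classes in their counts; this difference was not tested. In stem or folliculostellate-like cells 14 were measured, of which 10 stood 2-fold or more higher at 6 months and 0 lower, with a median log2 ratio of 1.73, beside the same 3.71% and 2.03% of all genes. PTGS2, the inducible prostaglandin synthase, was at 1.74 and 15.7 CPM, the adhesion molecule ICAM1 at 22.9 and 168 CPM and the cytokine IL6 at 7.18 and 47.6 CPM. The feedback inhibitors TNFAIP3 (7.16 and 38.5 CPM) and NFKBIA (43.5 and 215 CPM) and the survival gene BIRC3 (32.4 and 111 CPM) were higher too. In endothelial-like cells 6 of 10 were higher and 0 lower, with a median of 1.66, where 2.81% of all genes were higher. The named class of highest CXCL1, the macrophage-like cells, had 1 of 16 higher and 3 lower, with a median of −0.24. IL6 was at 1.46 and 21.5 CPM, NFKBIZ at 2088 and 315 CPM, LIF at 44.8 and 11.2 CPM and NFKBIA at 3544 and 1346 CPM. Somatotroph-like cells had 1 of 5 higher, NFKBIA (19.9 and 43.2 CPM), and fibroblast-like cells 0 of 2 apart.

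Genes of tissue-resident and type 2 macrophages were read beside CCL24. Of 11 measured in macrophage-like cells, 0 were higher and 3 lower at 6 months, with a median of 0.0062, where 3.34% of all genes were lower. The transglutaminase F13A1 was at 70.0 and 16.5 CPM, the scavenger receptor STAB1 at 192 and 59.3 CPM and the hyaluronan receptor LYVE1 at 58.8 and 23.6 CPM. In stem or folliculostellate-like cells LYVE1 (1.55 and 7.56 CPM) and IL4R (3.78 and 13.5 CPM) were the 2 of 7 that were higher, in endothelial-like cells 0 of 4 were apart, and in fibroblast-like cells SELENOP, the 1 measured, was lower (884 and 269 CPM). For the proteases that cut these ligands, 0 of 3 in macrophage-like, 0 of 3 in endothelial-like and 0 of 2 in somatotroph-like cells were 2-fold apart. Only CTSS (7.29 and 15.4 CPM) of 4 was in stem or folliculostellate-like cells, where ADAM10 stood at 44.3 and 41.6 CPM and ADAM17 at 17.2 and 22.7 CPM, beside 196 and 224 CPM for CX3CL1.

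Genes with a profile like each ligand were ranked by Pearson correlation of log2(CPM + 1) over 17 profiles of class and library, among 11967 genes. The profiles share 2 libraries, so the correlations are descriptions. CCL24 was nearest to CLEC5A (0.98), CLEC4F (0.97) and SIGLEC1 (0.97), lectin-type receptors. LYVE1 (0.96) and OSGIN1 (0.92) were among the 3 genes nearest to CXCL1. CX3CL1 was nearest to S100A14 (0.98), TCF7L1 (0.98) and MDFI (0.96), CXCL12 to NFATC4 (0.94), IGF2R (0.92) and LPAR1 (0.92), and CXCL14 to DLK1 (0.90), CCN3 (0.89) and CNTFR (0.88).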

How the data were processed

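For both libraries the authors deposited UMI counts without normalization, 1 value for each gene and barcode. The counting tool was Cell Ranger 5.0.0 according to the submitters' processing notes. The gene and barcode lists that the authors deposited hold other, text entries. The sources used here give neither the genome build nor how reads shared by close copies, such as paralogues of CXCL1, were counted. The libraries held 142479651 and 175239612 UMIs, and gene names came from a RefSeq table (22726 of 23141 identifiers matched). With 1 library per age, counting sets the only precision that can be given.

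Barcodes were required to show 500 genes and 1000 UMIs. Scrublet in scanpy 1.11.5 marked 922 and 570 doublets (5.63% and 4.30%), which were removed, and others may remain. The 3000 most variable genes, without chemokine, receptor, hormone and ribosomal protein genes, gave 30 components, a graph of 15 neighbours and Leiden clusters at resolution 1.0. A cluster was named from at least 3 markers that were 1.5-fold higher and seen in 10% of cells, with no competing class, a scoring rule set after the clusters were seen. The 4 clusters left unnamed are given by number, and rebuilt names can differ from the study's.

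Counts were summed per class and library and divided by their UMI total. Intervals are exact Poisson, Clopper-Pearson or conditional binomial at 95%, and 3 counts stand for a count of 0 in a bound. The ratio was tested on simulated data drawn with counting error only, which leave out the uneven spread of UMIs over cells. A gene counts as measured in a class with 100 UMIs over both libraries. Up to 6 genes per list that were 2-fold apart are named, by the interval bound nearer 0. The members and lists were chosen with earlier results of these data known, among them that CXCL14 was lower in somatotrophs at 6 months. Alternatives were TMM scaling (edgeR 4.0.16), other totals, filters, doublet handling, cluster resolutions and subtraction of free RNA. One gene with a similar profile and 1 cluster are not reported here.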

Additional observations from a re-analysis of the deposited data

How the results depend on the processing

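No paired analysis was possible because each age is 1 library, and no library could be left out. Of 116 alternative values of 12 log2 ratios of 6 over 3 months, 89 lay within the counting interval, 26 lay outside it with the same direction or an interval that included 0, and 1 took the other direction. That one was CXCL1 in macrophage-like cells, at −0.00017 under Leiden resolution 2.0 (86.9 CPM at 6 months), and under a looser cell filter it was 0.89 (178 CPM at 6 months). Leiden resolution 2.0 also gave −2.49 for CXCL14 in somatotroph-like cells (18.3 CPM at 6 months), −3.75 for CCL24 in macrophage-like cells (156 and 11.6 CPM) and 203 CPM of CX3CL1 in stem or folliculostellate-like cells at 3 months, and resolution 0.5 gave 202 CPM there. The mean of per-cell CPM gave −3.84 for CXCL14, 0.0785 for CX3CL1 in stem or folliculostellate-like cells and 0.33 for CXCL12 in fibroblast-like cells, whose ratio was also 0.42 under the looser filter (311 CPM at 6 months) and 0.68 with doublets kept, against −0.26 with an interval that included 0. Totals without hormone genes gave 279.7 CPM of CXCL12 in fibroblast-like cells at 6 months, 163 and 20.5 CPM of CXCL14 and 201 and 233 CPM of CX3CL1. Without clusters of which 90% came from 1 library, an alternative chosen after seeing the data, CX3CL1 in stem or folliculostellate-like cells was 0.31, and the macrophage-like ratios could not be computed for lack of cells. CX3CL1 in endothelial-like cells was 1.27 with doublets kept and 1.45 when CPM were averaged over cells, and endothelial-like cells came first for CX3CL1 at 6 months under the looser and the stricter filter. CXCL14 in lactotroph-like cells moved from 0.0015 to −2.22 with doublets kept, −2.64 and −5.32 at Leiden resolutions 2.0 and 0.5, −2.97 under the stricter and −6.47 under the looser filter. CXCL1 in stem or folliculostellate-like cells was 8.36 with free RNA subtracted, which left 0.0520 CPM at 3 months. The cause of these differences was not tested. A stricter filter left no fibroblast-like class of 20 cells at 6 months, and put a thyrotroph-like class of 60 cells (130.1 CPM) above somatotroph-like cells (14.0 CPM) for CXCL14 at 6 months. TMM scaling moved log2 ratios by 0.21 in fibroblast-like and −0.21 in somatotroph-like cells, and totals without hormone genes moved those of fibroblast-like cells by 0.42. With doublets kept, 147 genes were 2-fold apart in fibroblast-like cells, against 243. Only 19 fibroblast-like cells at 6 months reached 2000 UMIs.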

Other observations

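Several values lie outside the named classes. Cluster 20, unnamed and led by CRYM, ADIRF and KRT19 among others, had 125 CPM of CX3CL1 (89 UMIs in 418 cells) at 3 months and 116 CPM (42 UMIs in 224 cells) at 6 months. Cluster 17, unnamed and led by CST3, CXCL9 and IDO1 among others, had 7.75 CPM of CXCL1 (4 UMIs in 105 cells) and 21.2 CPM (100 UMIs in 426 cells). Cluster 23, a somatotroph-like cluster led by TSHB and GH, had 85.1 CPM of CXCL14 (25 UMIs in 79 cells) at 3 months.

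Cluster 9, a lactotroph-like cluster led by PRL, had 57.4 CPM of CX3CL1 at 6 months. Its 215 cells held 126 of the 209 lactotroph-like UMIs, and the stem or folliculostellate markers summed to 699 CPM in it. Their part in that value was not tested. At 2000 UMIs, 25 of the 66 stem or folliculostellate-like cells with CXCL1 at 6 months also had CX3CL1 (37.9%), against 33.9% of the others. For CXCL12 in the same class, 26.9% of 78 cells also had CX3CL1 at 3 months against 30.7% of the others, and 41.5% of 41 cells at 6 months against 33.9%.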
